A study of Caenorhabditis elegans with 51 samples.

Results

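A set of 222 Caenorhabditis elegans genes was low at the start and at the end of an 11-library wild-type time course and high in its middle. The members were chosen from these wild-type libraries: the mean at 4 to 6 h after a temperature shift had to reach 5 CPM (read counts scaled to a common library total) and be at least 4 times both the mean at 0 to 2 h and the mean at 8 to 10 h. Of 44200 genes in the count tables, 280 met the rule. The 58 with symbols of the cuticle collagen, cuticulin, hedgehog-related and astacin families (col-, cut-, cutl-, wrt-, grd-, grl- and nas-) were left out, which gave the 222. The wild-type peak is therefore a description of how the genes were picked and not a result.

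RNA of whole L4 animals was sequenced in experiments on xrn-2, whose product XRN2 degrades RNA from the 5' end in the nucleus. In the time course, strain HW1660 with the temperature-sensitive allele xrn-2(xe31) and wild type N2 (WT) grew for 59 h at 15 °C, were moved to 26 °C and were taken each hour from 0 to 10 h, each strain and hour giving 1 library; the 6 h and 10 h RNA was sequenced again more deeply, which adds no animals. Strain HW2216 holds a catalytic-dead copy, xrn-2(D234/236A)::gfp, in addition to xrn-2(xe31) and was taken at 6 h and 10 h after the same shift, beside its own N2 libraries, 1 library each. N2 animals were kept at 20 °C on xrn-2 RNAi or an empty vector (mock) between L1 and mid-L4; polyA selection gave 1 library per treatment, and rRNA depletion gave 2 xrn-2 RNAi libraries and 1 mock library. Neither the promoter of the catalytic-dead copy nor the number of animals per library is stated in the labels.

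C. elegans larvae replace their cuticle at each molt, and many genes expressed in the epidermis and pharynx rise and fall once in every larval stage. Before the old cuticle is shed, epidermal cells secrete precuticle proteins, collagens, proteases and their inhibitors, while the cells of the pharynx secrete a separate lining that is rich in disordered, low-complexity proteins. Transcription factors such as NHR-23, BLMP-1, GRH-1 and the BED zinc-finger protein BED-3 are known to act in this cycle.

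The libraries held 41238235 to 57832479 gene counts in the time course, 239213652 to 253142688 in the resequenced set, 49628394 to 74356542 in the catalytic-dead experiment, 21695913 to 23817072 with rRNA depletion and 36463650 to 44605077 in the polyA RNAi pair. The xrn-2 transcript stood at 129 to 280.0 CPM over the 11 xe31 libraries and at 94.9 to 171 CPM over the 11 WT libraries, and a temperature-sensitive allele need not alter it. It was at 537 and 500.3 CPM in the catalytic-dead libraries, against 103 and 106 CPM in their WT. In RNAi it was at 79.5 against 132 CPM with polyA selection, but at 80.2 and 68.8 CPM against 69.3 CPM with rRNA depletion. The transcript was thus not lower in the libraries labelled xrn-2 RNAi after rRNA depletion, and directions drawn from them rest on the label alone.

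The members' counts together formed a single wave. In WT the summed level was 936, 1552 and 5146 CPM at 0, 1 and 2 h, 14541 CPM at 3 h, 27642, 31676 and 25284 CPM at 4, 5 and 6 h, 8447 CPM at 7 h, and 2396, 1164 and 789 CPM at 8, 9 and 10 h. At 5 h the 222 genes held 3.17% of all WT counts. Single members had a median of 30.8 CPM at 4 to 6 h, between 5.02 and 2408 CPM, and a median of 9.11 times the higher of the flanking means, up to 76.9 times. In WT, 63 members had their highest value at 4 h, 106 at 5 h, 52 at 6 h and 1, nspb-11, at 7 h. Whole animals were sequenced, so a change in the number of expressing cells and a change in RNA per cell cannot be told apart.

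Just inside the rule lay F56C3.9, at 4.01 times its early mean, abu-4, at 5.02 CPM, and C06E7.4, at 4.04 times its early mean. Just outside lay bcl-11, at 3.9989 times its late mean (201 against 50.3 CPM), M03E7.2, at 4.97 CPM, and agmo-1, at 3.97 times its early mean. The set has no gap at its edge: with a 3-fold rule it would hold 303 genes and with a 6-fold rule 161.

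Sequences were not printed for these genes, because promoter and protein sequences were not used here. By the gene order of the WBcel235 annotation, in which 212 members were found by symbol, 20 members stood next to another member in 7 runs. The longest run held pqn-63, idpc-7, idpc-6, idpc-5 and idpc-4, and the next R12E2.15, R12E2.14, R12E2.6 and R12E2.7. ZK180.5 and ZK180.6, both among the 10 most abundant members, were neighbours, but their peaks lay at different hours: ZK180.5 was highest at 4 h in xe31 and at 5 h in WT, and ZK180.6 at 3 h in xe31 and at 4 h in WT. Neighbours and near-identical copies share reads if counting does not separate them, and the labels do not say how counting treated them.

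The wave was present in xe31, where the summed level was highest 1 h earlier than in WT. In xe31 the summed level was 1363, 2016 and 6015 CPM at 0, 1 and 2 h, 20584 CPM at 3 h, 32429, 25896 and 19734 CPM at 4, 5 and 6 h, 6021 CPM at 7 h, and 2814, 1331 and 1220.2 CPM at 8, 9 and 10 h. The xe31 sum was thus above WT at every hour from 0 to 4 h, below WT from 5 to 7 h, and above it again from 8 to 10 h. The rule picked genes with low WT values at 0 to 2 h and 8 to 10 h. The xe31 excess at those hours is therefore not independent of how the members were picked. The summit was of like height, 32429 CPM at 4 h in xe31 and 31676 CPM at 5 h in WT. Per gene, the highest xe31 value was 1.02 times the highest WT value in the median, with quartiles of 0.939 and 1.11 times.

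**Figure D1:**
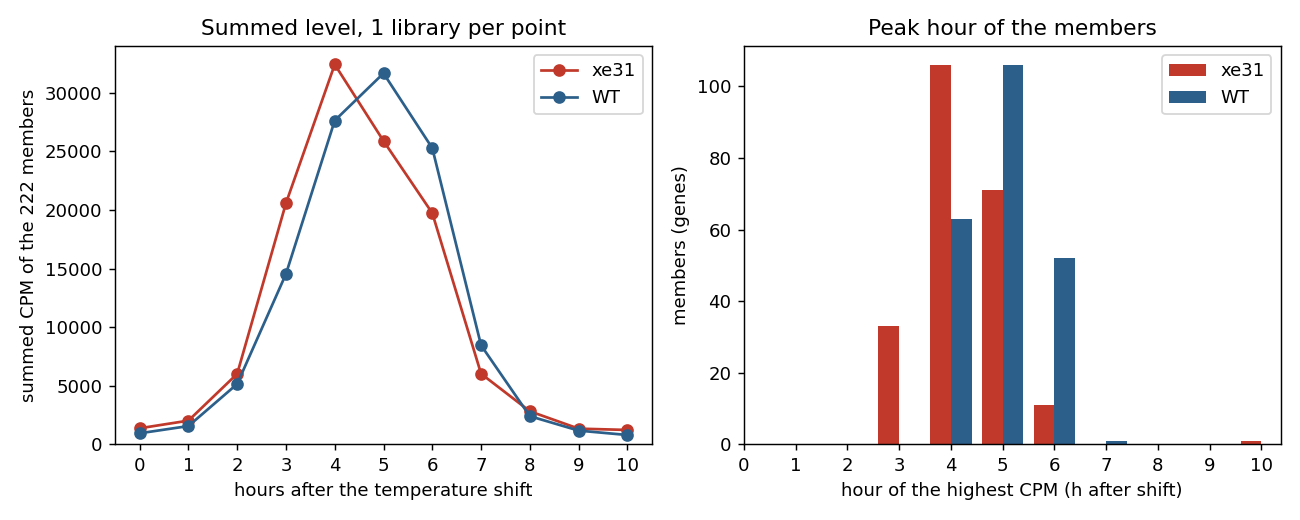
Left, summed CPM of the 222 members against hours after the temperature shift for xe31 and WT, each point 1 library. The xe31 sum is highest at 4 h (32429 CPM) and the WT sum at 5 h (31676 CPM). Right, number of members whose highest CPM falls at each hour, with 33 members at 3 h in xe31 and none in WT.

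Gene by gene, 152 members (68.5%) had their highest value at an earlier hour in xe31 than in WT, against 32.4% of all 10634 genes with at least 5 CPM at 4 to 6 h in WT, and 69 had it at the same hour and 1 at a later hour. Of the 63 members that were highest at 4 h in WT, 33 were highest at 3 h in xe31 and 29 at 4 h. Of the 106 with a WT peak at 5 h, 76 were highest at 4 h in xe31 and 30 at 5 h, and of the 52 with a WT peak at 6 h, 41 were highest at 5 h in xe31, 10 at 6 h and 1 at 4 h. The CPM-weighted mean hour, the average hour of a gene's counts over the course, had a median of 4.69 h in xe31 and 4.99 h in WT. The median shift per gene was -0.33 h, from -0.68 to 1.19 h, and 202 of 222 members (91%) were earlier in xe31. Over all 10634 genes the median shift was -0.09 h and 65.9% were earlier, and over the 58 genes of the left-out families it was -0.30 h. The size of the shift depended on the measure: its median was -1 h by the hour of the highest CPM and 0 h by the highest 3-hour running mean. By the mean absolute log2 difference of CPM + 1 over 1 to 9 h, 209 members were nearest to the same hour of WT and 13 to the WT hour 1 h later, with median distances of 0.457 and 0.704. These shifts have no test, since the WT libraries chose the members and each hour is 1 library.

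By ranks the lead appeared at 3 to 5 h. Across the 222 members, the xe31 library of 3 h ranked most like the WT library of 4 h (Spearman's rho 0.981, against 0.979 with WT 3 h), that of 4 h most like WT 5 h (0.963, against 0.926 with WT 4 h) and that of 5 h most like WT 6 h (0.992). The xe31 libraries of 0, 1, 2, 6, 7, 8, 9 and 10 h each ranked most like the WT library of their own hour. These correlations are across genes that share libraries and gene lengths, and they are given as a description. This measure was chosen after the values had been seen.

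**Figure D2:**
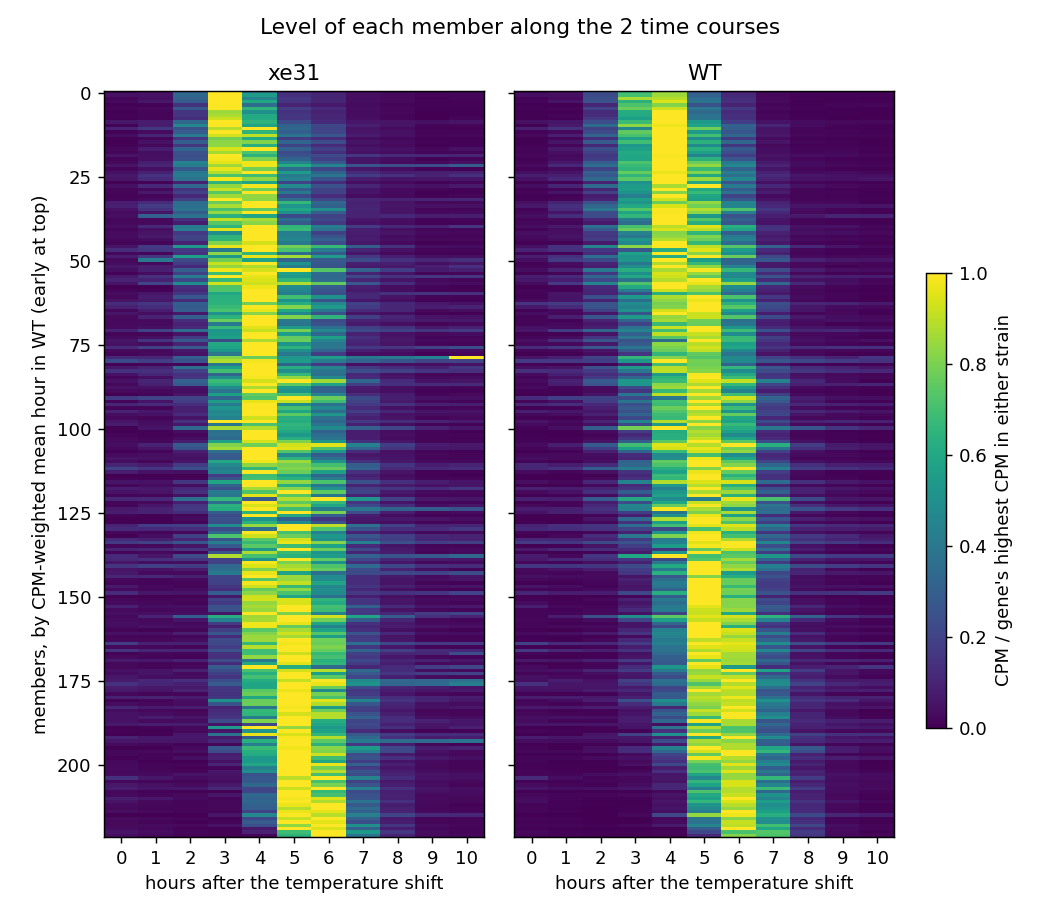
Level of each of the 222 members (rows, ordered by the CPM-weighted mean hour in WT) at each hour after the shift (columns), in xe31 on the left and WT on the right, as CPM divided by the gene's highest CPM in either strain. The highest 3-hour mean lies at 3 to 5 h in 91 xe31 rows and 56 WT rows and at 4 to 6 h in 103 xe31 rows and 113 WT rows, and ugt-52 is the single row with its maximum at 10 h in xe31.

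Whether the members peak in xe31 could be tested, because the xe31 libraries did not choose them. The libraries of 4, 5 and 6 h were set against those of 0, 1 and 2 h and those of 8, 9 and 10 h, with edgeR's quasi-likelihood test and Benjamini-Hochberg adjustment over 16877 genes; the hours stand as replicates of a window, which left 6 residual degrees of freedom, and p-values measure the spread between hours. In xe31, 167 of 222 members rose over both flanks at an adjusted p under 0.05, or 75.2%, against 830 genes or 4.92% of all genes tested. The median log2 difference of the members was 3.09 over 0 to 2 h and 4.01 over 8 to 10 h, with medians over all genes of -0.02 and 0.00. By the 4-fold, 5 CPM rule applied to the xe31 libraries, with no test, 169 of 222 members qualified, against 1.44% of genes.

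The members that missed the call were mainly those with an early WT peak. Of the members with a WT peak at 4 h, 19 of 63 were called in xe31, against 97 of 106 with a peak at 5 h and 50 of 52 with a peak at 6 h. The fitted log2 difference was positive at both flanks for all 222, while by mean CPM ugt-52 was just below its late flank; 209 members passed against 8 to 10 h, against 17.2% of all genes, and 172 against 0 to 2 h, against 25.5%. With windows of 3 to 5 h, 0 to 2 h and 7 to 9 h, 26 of 63, 88 of 106 and 14 of 52 were called. Without the library of 2 h, 214 of 222 were called. The share of all genes called was not computed for these alternative windows, so these counts have no background.

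Of the 10 most abundant members, 7 are known by sequence name alone. The highest, F41F3.3, had 2779, 1948 and 1421 CPM at 4, 5 and 6 h in xe31, where it had 63.8, 217 and 759 CPM at 0, 1 and 2 h and 150.0, 50.0 and 38.1 CPM at 8, 9 and 10 h. In WT it had 2441, 2787 and 1996 CPM at 4, 5 and 6 h. Its xe31 middle libraries lay above all flanking ones, yet the log2 difference from 0 to 2 h, 2.41 ± 0.87 (SE), just missed the call (edgeR adjusted p = 0.051).

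rol-1, named for the rolling movement of its mutants, had 2784 CPM at 3 h and 2732, 1101 and 795 CPM at 4, 5 and 6 h in xe31, against 2337 CPM at 3 h and 3372, 2163 and 1109 CPM at 4, 5 and 6 h in WT. The 2 h xe31 library, at 1013 CPM, was above its 6 h library, so the windows overlapped, and rol-1 was not called (log2 1.83 ± 1.29 over 0 to 2 h, edgeR adjusted p = 0.27). ram-2, named for the shape of the male tail rays, had 1954, 1638 and 1402 CPM at 4, 5 and 6 h in xe31, against 1728, 1852 and 1839 CPM in WT. In xe31 it rose 3.09 ± 0.51 on the log2 scale over 0 to 2 h (edgeR adjusted p = 0.0022) and 3.31 ± 0.51 over 8 to 10 h (adjusted p = 0.0041), with no overlap of windows. The neighbours ZK180.5 and ZK180.6 had 2242, 1402 and 865 CPM, and 1005, 264 and 178 CPM, at 4, 5 and 6 h in xe31. In WT they had 1413, 2041 and 1328 CPM, and 1648, 626 and 225 CPM. ZK180.5 was called in xe31 (log2 4.43 ± 0.66 over 0 to 2 h, edgeR adjusted p = 0.0016) and ZK180.6 was not (2.15 ± 1.18, adjusted p = 0.17).

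Of the other highest members, Y47D7A.13, F53F1.4, Y51H7C.13 and ZK84.1 were called in xe31. The call of Y51H7C.13 was lost without any of the libraries of 1, 4, 5, 6, 9 and 10 h and with the 3 to 5 h window (edgeR adjusted p = 0.054 to 0.107), and that of ZK84.1 without that of 0, 1, 4 or 5 h (0.053 to 0.097). Y47D7A.13 lost its call with the 3 to 5 h window (edgeR adjusted p = 0.077), and F53F1.4 kept its call in every alternative run. Y47D7A.13 was among the late ones, with 1087, 1542 and 1469 CPM at 4, 5 and 6 h in xe31 and 529, 1410.0 and 1655 CPM in WT. Y51H7C.13 shifted least of the 10, with a weighted mean hour of 4.52 h in xe31 and 4.60 h in WT.

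**Figure D3:**
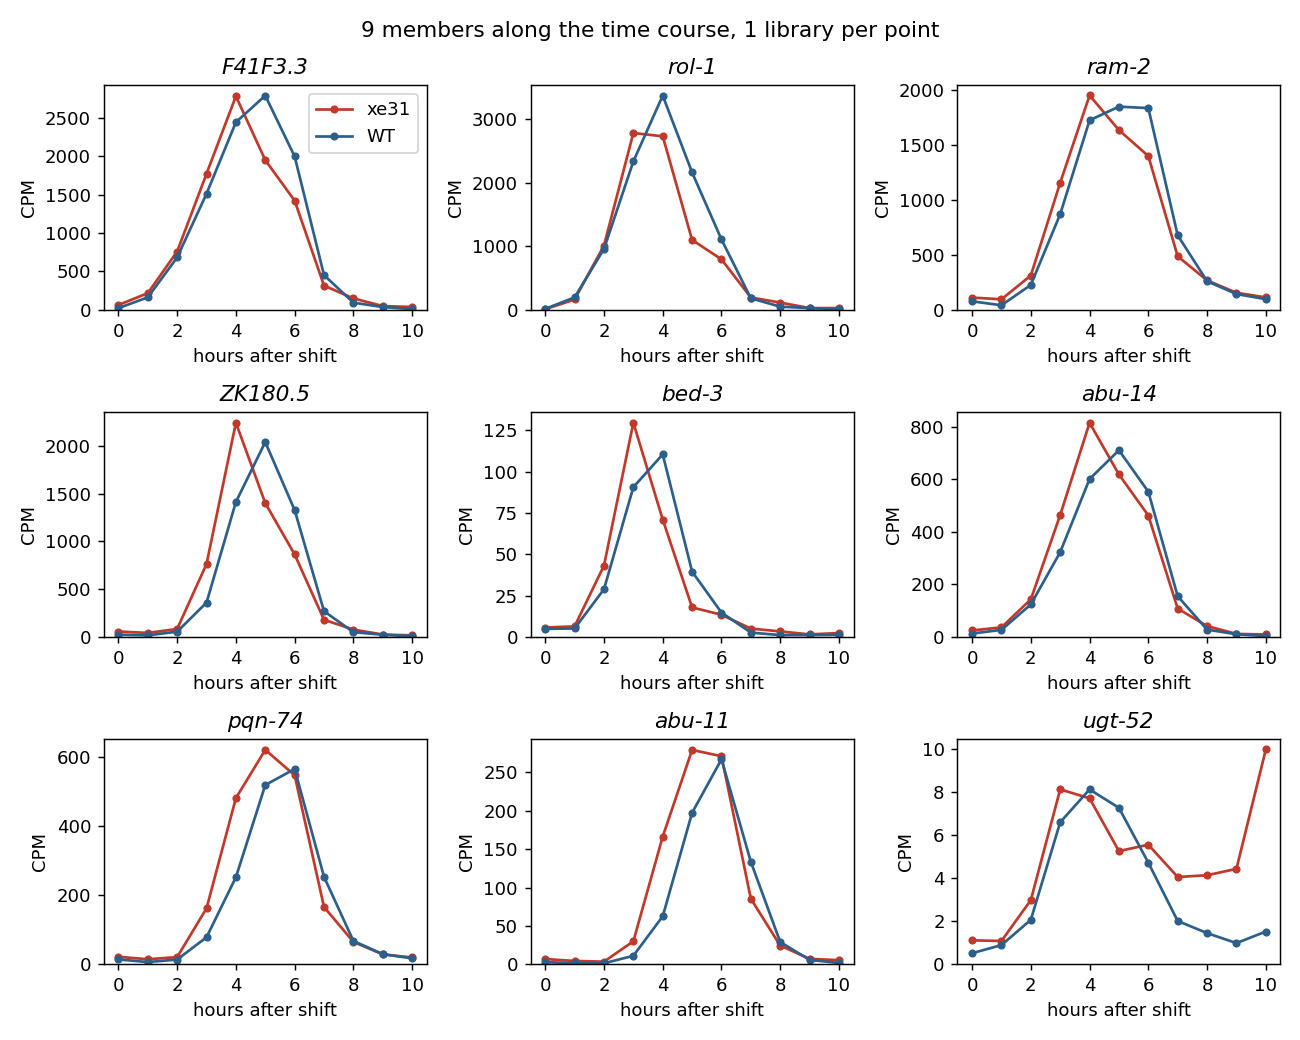
CPM of 9 members at each hour after the temperature shift in xe31 and WT, each point 1 library. The xe31 maximum precedes the WT maximum by 1 h in 8 of the 9 panels shown, and ugt-52 has its xe31 maximum at 10 h (9.96 CPM, against 1.52 CPM in WT).

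Regulators of the molting cycle were mostly not in the set. Of 21 listed regulators 1 was a member, bed-3, a BED zinc-finger gene needed for molting. It was at 130 CPM at 3 h and at 71.1, 17.9 and 13.5 CPM at 4, 5 and 6 h in xe31, against 90.7 CPM at 3 h and 111, 39.6 and 14.8 CPM at 4, 5 and 6 h in WT. In xe31 its middle libraries overlapped those of 0 to 2 h, which reached 43.2 CPM, and the rise over them was not called (log2 0.76 ± 0.90, edgeR adjusted p = 0.52).

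Most regulators named here were higher before the wave than in it. In WT, myrf-1, a membrane-bound transcription factor gene, averaged 57.6 CPM at 4 to 6 h against 276 CPM at 0 to 2 h, lin-42, the period homologue, 126 against 254 CPM, grh-1, the grainyhead factor, 13.6 against 45.7 CPM, and blmp-1 31.7 against 65.6 CPM. The nuclear receptor gene nhr-23 averaged 52.7 CPM at 4 to 6 h against 84.6 CPM at 0 to 2 h in WT, and nhr-25, alone of these, was higher at 4 to 6 h (6.54 against 4.70 CPM). Of the 21 regulators in xe31, 1 rose and 12 fell at 4 to 6 h over 0 to 2 h, against 25.5% and 22.2% of all genes. Over 8 to 10 h, 8 rose and 1 fell, against 17.2% and 17% of all genes.

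Few genes on the lists of epidermal matrix genes were members. The 58 genes of the collagen, cuticulin, hedgehog-related and astacin families had been left out by symbol. The set therefore cannot show how many matrix genes peak in mid-course. Of 20 listed precuticle and apical matrix genes, 2 were members. lron-2, a leucine-rich-repeat matrix protein gene, had 74.8, 115 and 91.7 CPM at 4, 5 and 6 h in xe31 and 44.8, 92.3 and 99.7 CPM in WT, and was called in xe31. lpr-7, of the lipocalin-related family, had 46.2, 15.8 and 9.47 CPM in xe31 and 46.5, 36.4 and 14.1 CPM in WT, and was not. Of 21 molting enzymes and secreted factors the set held bli-5, a Kunitz-type protease inhibitor, at 10.6, 9.22 and 5.41 CPM in xe31 and 8.18, 11.6 and 7.98 CPM in WT. Within the list of 20 matrix genes in xe31, 3 rose and 13 fell at 4 to 6 h over 0 to 2 h, against 25.5% and 22.2% of all genes. Over 8 to 10 h, 13 of them rose and 1 fell, against 17.2% and 17% of all genes. No member was on the lists of body-shape collagens (19 genes), nuclear hormone receptors (211 tested) or vulva and uterus genes (23). The list of body-shape collagens did not hold the members rol-1 and ram-2. It therefore does not show that the set lacks genes of that kind.

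Of 28 patched-related genes, which encode sterol-sensing membrane proteins, 2 were members and both peaked late. ptr-23 had 245, 410.0 and 292 CPM at 4, 5 and 6 h in xe31, against 114, 369 and 399.5 CPM in WT. ptr-3 had 15.3, 71.9 and 42.4 CPM in xe31, against 2.95, 41.7 and 62.6 CPM in WT. Both rose over both flanks in xe31, ptr-23 by 2.93 ± 0.23 over 0 to 2 h (log2, edgeR adjusted p = 0.00024).

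The largest group of listed members had abu- and pqn- symbols. These name genes for repetitive, glutamine- and asparagine-rich or low-complexity proteins, several of which belong to the pharyngeal cuticle and others not. Of 70 such genes, 50 reached 5 CPM at 4 to 6 h in WT, 16 were members and 13 of these were called in xe31. Over the 61 tested genes of the list the median log2 difference in xe31 was 0.13 over 0 to 2 h. Of these genes 23 rose and 10 fell, against 25.5% and 22.2% of all genes. pqn-74 had 482, 622 and 548 CPM at 4, 5 and 6 h in xe31, against 14.5 to 21.6 CPM at 0 to 2 h and 19.6 to 64.8 CPM at 8 to 10 h. In WT it had 252, 520.0 and 567 CPM at 4, 5 and 6 h. The log2 rise in xe31 was 4.67 ± 0.45 over 0 to 2 h (edgeR adjusted p = 0.00042) and 3.96 ± 0.43 over 8 to 10 h (adjusted p = 0.0019).

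Not all of these kept the same hour. abu-14, the highest, had 814, 618 and 462 CPM at 4, 5 and 6 h in xe31 and 600.4, 709.9 and 552 CPM in WT, whereas abu-11 had 166, 279 and 271 CPM in xe31 and 62.4, 197 and 267 CPM in WT. The weighted mean hours of the 8 abu- members ran from 3.86 to 6.15 h in WT. pqn-54, with 201, 326 and 302 CPM in xe31 against 65.8, 247 and 325 CPM in WT, kept company with abu-11. pqn-63 was highest at 4 h in xe31 (169.7 CPM) and at 5 h in WT (173 CPM). Several abu- and pqn- genes are near-identical, so the split of reads among them is uncertain. A further 19 members had idpa-, idpb-, idpc- or idpp- symbols, which name disordered proteins of the pharyngeal lining, of 31 such genes tested, and 18 of the 19 were called in xe31. This group was formed after the values had been seen; its highest gene, idpc-1, had 305, 229 and 203 CPM in xe31 and 181.5, 278 and 262 CPM in WT.

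Of the small secreted peptides and lectins, 6 of 343 tested genes were members and all 6 were called in xe31. nlp-34, a neuropeptide-like gene, had 68.8, 58.7 and 32.7 CPM at 4, 5 and 6 h in xe31 and 45.3, 69.7 and 47.9 CPM in WT. cnc-4, of the caenacin peptides, was highest at 5 h in both strains, at 36.6 CPM in xe31 and 36.2 CPM in WT, and nlp-25 had 33.7, 53.8 and 43.5 CPM in xe31 and 18.3, 50.4 and 53.8 CPM in WT. clec-229, a C-type lectin gene, had one of the sharpest WT peaks, at 66.8 times its higher flank, and C27D9.2 the sharpest at 76.9 times. In xe31 these were 33.1 and 24.1 times. Both were named for their WT fold, so a lower fold in xe31 can come from that choice. Over all members the median fold was 7.81 in xe31 and 9.11 in WT.

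The rule held the members' WT hours within a narrow range, so the extremes of timing are given as a description. cpg-19, bed-3, lips-9 and F40E10.5 had the lowest weighted mean hours in WT, 3.66 to 3.78 h, and all were highest at 3 h in xe31. C06E8.5, nspb-11, dct-5 and C42D4.3 had the highest, 6.17 to 6.47 h. C06E8.5 had 2.70, 98.1 and 151 CPM at 4, 5 and 6 h in xe31, against 0.642, 17.4 and 124 CPM in WT, and dct-5 4.27, 66.6 and 62.9 CPM in xe31, against 0.238, 19.4 and 66.4 CPM in WT. In these the xe31 libraries of 4 and 5 h were well above WT, and those of 6 h differed less.

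Over the 222 members the median level at 8, 9 and 10 h was higher in xe31 than in WT. It was 3.82, 1.81 and 1.87 CPM in xe31, against 2.66, 1.40 and 0.883 CPM in WT. The rule required low WT means at these hours and did not use xe31. This difference is therefore not independent of how the members were picked, and it has no test. The members named next had the largest later shifts of the weighted mean hour. ugt-52, a UDP-glucuronosyltransferase gene, had 4.13, 4.42 and 9.96 CPM at 8, 9 and 10 h in xe31, against 1.44, 0.979 and 1.52 CPM in WT, and had the largest later shift, 1.19 h. Resequenced RNA gave 9.07 CPM in xe31 and 1.36 CPM in WT at 10 h. lrx-1, an LDL-receptor-repeat gene, had 9.44, 9.09 and 11.7 CPM at 8, 9 and 10 h in xe31, against 1.27, 0.784 and 0.653 CPM in WT, and shifted by 0.72 h. For these genes the xe31 libraries of 8 to 10 h did not overlap those of WT. ZK1010.4 and pho-9, of the acid phosphatase family, shifted by 0.36 and 0.34 h. The largest earlier shifts were those of the P450 gene cyp-37B1 (-0.68 h), abu-7 (-0.67 h), F20B10.3 (-0.65 h) and dct-5 (-0.62 h).

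The catalytic-dead libraries held more of the members' RNA at 10 h than at 6 h, and their WT libraries less. The members' summed level was 3946 CPM at 6 h and 7114 CPM at 10 h in catalytic-dead animals, against 6173 CPM at 6 h and 585 CPM at 10 h in their WT. The catalytic-dead sum was below WT at 6 h and above it at 10 h. At 10 h, 193 of 221 members were at least 2-fold higher in catalytic-dead animals, against 30.3% of all 17212 genes tested, and 1 was at least 2-fold lower, against 8.45%. At 6 h, 63 of 221 were at least 2-fold higher, against 18.1% of genes, and 76 at least 2-fold lower, against 13.4%. These counts compare 1 library with 1 library and have no test.

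At 6 h the direction went with the hour of the WT peak. The median log2 ratio of CPM + 1, catalytic-dead over WT, was -0.16 over all members, against 0.15 over all genes of the time-course test. It was 1.27 over the 63 members with a WT peak at 4 h, -0.06 over the 106 with a peak at 5 h and -2.14 over the 52 with a peak at 6 h. At 10 h the medians were 3.13, 2.95 and 2.11, and 2.82 over all members against 0.37 over all genes. Across the 222 members, Spearman's rho between the WT weighted mean hour and the ratio was -0.72 at 6 h and -0.20 at 10 h, a description over genes that share the same 4 libraries.

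**Figure D4:**
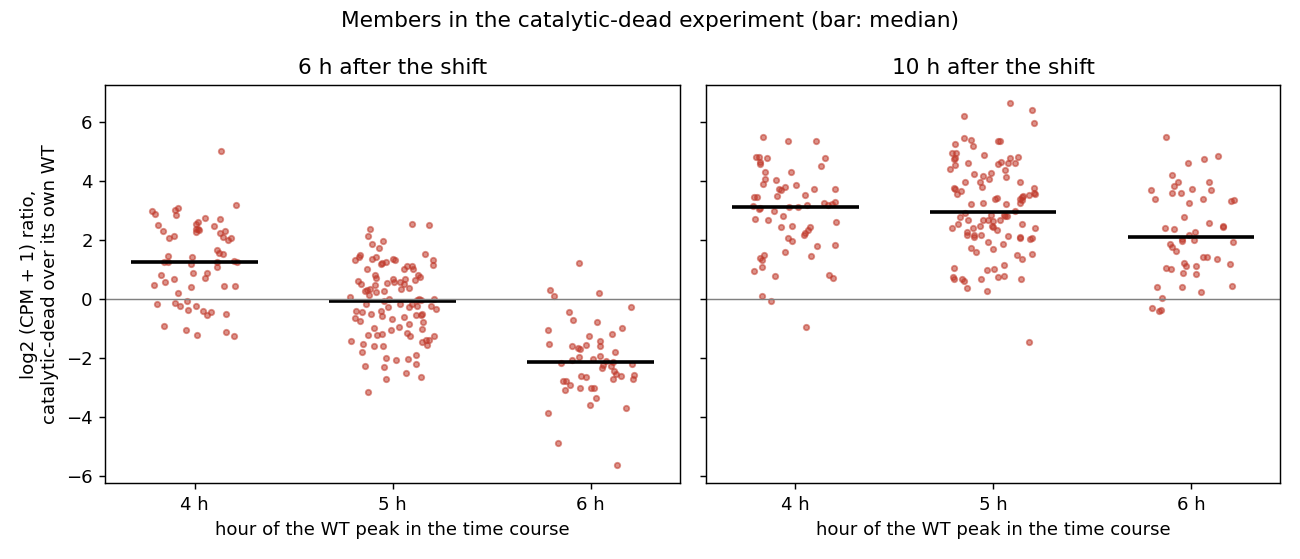
Log2 ratio of CPM + 1 in catalytic-dead over WT libraries for each member but nspb-11 (points) at 6 h (left) and 10 h (right) after the shift, by the hour of the member's WT peak in the time course; bars are medians. At 6 h the medians run from 1.27 to -2.14, and at 10 h all 3 are above 2.

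Early-peaking genes illustrate the first pattern. bed-3 had 15.2 and 22.8 CPM at 6 and 10 h in catalytic-dead libraries, against 1.92 and 1.12 CPM in WT. lips-9, of a lipase-related family, had 19.6 and 51.7 CPM, against 1.57 and 0.295 CPM in WT, and ugt-52 had 17.97 and 20.1 CPM, against 1.40 and 1.30 CPM. In all of these both catalytic-dead libraries were above both WT libraries.

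Late-peaking abu- and pqn- genes were reversed between the hours. abu-11 had 7.90 and 39.8 CPM at 6 and 10 h in catalytic-dead libraries, against 128 and 0.689 CPM in WT. pqn-74 had 32.2 and 127 CPM, against 218 and 11.1 CPM, and pqn-54 9.94 and 33.3 CPM, against 87.7 and 1.40 CPM. The catalytic-dead values lay between the WT values of the 2 hours. C06E8.5 had 1.26 and 0.786 CPM in catalytic-dead libraries, against 110.0 and 0.748 CPM in WT, and dct-5 0.320 and 0.242 CPM, against 37.6 and 0.512 CPM. F53F1.4 was lower at both hours, at 18.3 and 19.001 CPM in catalytic-dead libraries against 171 and 54.2 CPM in WT.

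With both hours in 1 edgeR fit (hour as a block, 1 residual degree of freedom), 1 of 221 members rose, against 0.697% of genes, and 0 fell, against 0.465%. The residual of this fit is the difference of the strain effect between 6 h and 10 h. A change that differed between the hours, as the members' sum did, therefore counts as error. The called gene was C08E8.4, known by sequence name, at 69.3 and 58.8 CPM in catalytic-dead libraries against 1.17 and 0.453 CPM in WT (log2 6.12 ± 0.55 SE, edgeR adjusted p = 0.0454, higher in 2 of 2 hours). Its call was lost without the WT 10 h library. With a library left out, 1 strain is left with 1 library, and the log2 change of C08E8.4 was 5.52 to 6.76. The next largest rises, idpp-3, F33A8.7, lips-9 and oac-30, of the O-acyltransferase family, had log2 changes of 4.85 to 5.34 and were not called, and the largest falls, dct-5, C06E8.5, Y41E3.22, F53F1.4 and abu-7, had changes of -4.42 to -2.11 and were not called. The median over members was 1.70, against 0.09 over all genes; it was 0.25 without WT 10 h, 0.37 without catalytic-dead 10 h, 3.83 without WT 6 h and 0.88 without the block. At an unadjusted level of 0.05, 48 members were higher, or 21.7% against 18.2% of all genes, and 2 lower, against 11.4%. DESeq2 called 81 higher, against 12.2% of genes, and 4 lower, against 9.64%. Between 6 h and 10 h across both strains, edgeR called 0 of 221 members higher and 0 lower, against 0% of genes in either direction, with a median log2 difference of 1.15 that was -0.03 without WT 6 h and -0.53 without WT 10 h; at an unadjusted 0.05 there were 2 higher and 1 lower, against 1.11% and 1.5% of genes, and DESeq2 called 2 higher and 0 lower, against 0.151% and 0.401%.

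Markers of stage and tissue differed between these libraries as well. The sum over 6 yolk genes was 47.1 and 55.5 CPM in catalytic-dead libraries, against 14544 and 35570 CPM in their WT, and below the lowest WT time-course library (109 CPM). The 47 sperm genes summed to 112 and 336 CPM, against 1285 and 1023 CPM, the 13 oocyte and germline genes to 1834 and 2391 CPM, against 4146 and 8218 CPM, and the 10 epidermal genes to 2003 and 1623 CPM, against 583 and 400.3 CPM. Of the sperm genes, 12 were at 0 in both catalytic-dead libraries and 10 in both WT libraries, and none of the yolk or epidermal genes was. myrf-1, which is highest at 0 h in the WT course, was at 235 and 155 CPM in catalytic-dead libraries, against 24.5 and 24.9 CPM in WT. By ranks over the 222 members the catalytic-dead library of 6 h was most like WT 1 h of the time course (Spearman's rho 0.766, against 0.722 with WT 2 h). That of 10 h was most like WT 5 h (0.679, against 0.656 with WT 0 h). By median log2 distance the nearest WT hours of these libraries were instead 2 h and 4 h, so their hours are poorly determined. Their WT libraries were most like WT 7 h (0.978) and WT 10 h (0.947). The part of stage in the catalytic-dead differences was not tested.

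The WT 6 h library of this experiment also stood apart from the time course. The members summed to 6173 CPM there, against 25284 CPM in the WT 6 h library of the time course and 26903 CPM when that RNA was resequenced.

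In RNAi, members with an early WT peak were higher and those with a late peak lower than in mock. With polyA selection the members summed to 3302 CPM in xrn-2 RNAi and 6858 CPM in mock. Of 210 members with at least 100 counts over the pair, 46 were at least 2-fold higher in RNAi, against 21% of all 13970 genes with as many counts, and 93 at least 2-fold lower, against 6.52%. The median log2 ratio of CPM + 1 was 1.24 for the 61 members with a WT peak at 4 h, -0.72 for the 98 with a peak at 5 h and -2.84 for the 50 with a peak at 6 h, and -0.52 over all 210, against 0.34 over all genes. The share of members that were higher was near that of all genes, and the share that were lower was well above it. With 1 library per treatment there is no test.

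Exact binomial 95% intervals, which cover counting error alone, were computed for log2 ratios of CPM without a pseudocount. bed-3 had 18.8 CPM in RNAi and 1.92 CPM in mock (log2 ratio 3.29, 2.94 to 3.67), and cpg-19 8.72 and 0.466 CPM (4.23, 3.53 to 5.02). rol-1 had 238 and 115 CPM (1.05, 1.00 to 1.10). At the other end, C06E8.5 had 1.46 CPM in RNAi and 161 CPM in mock (-6.79, -7.17 to -6.44), dct-5 0.785 and 58.6 CPM (-6.22, -6.75 to -5.74), and Y47D7A.13 21.9 and 492 CPM (-4.49, -4.58 to -4.40). Of the abu- and pqn- genes, abu-11 had 2.56 CPM in RNAi and 92.4 CPM in mock (-5.18, -5.46 to -4.91) and pqn-74 11.01 and 179 CPM (-4.03, -4.16 to -3.89), and 16 of 16 idp- members with enough counts were lower in RNAi, against 31.7% of all genes. After rRNA depletion 3 of the 19 idp- members were lower, against 26.3% of all genes of the time-course test. Their median log2 ratio of CPM + 1 was 0.53, against 0.24 over those genes.

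After rRNA depletion the members summed to 10005 and 6533 CPM in the 2 libraries labelled xrn-2 RNAi and 4541 CPM in mock. The median log2 ratios of their mean to mock were 2.13, 0.82 and -0.31 for members with WT peaks at 4, 5 and 6 h, and 0.70 over all 222, against 0.24 over all genes of the time-course test. bed-3 had 14.3 and 23.3 CPM in libraries labelled xrn-2 RNAi and 1.34 CPM in mock, and C06E8.5 11.7 and 1.22 CPM against 87.6 CPM. abu-11 lay on both sides of the mock value, at 122 and 35.9 CPM against 85.1 CPM in mock. edgeR called 0 of 221 members higher and 0 lower, against 0% of genes in either direction (1 residual degree of freedom), with 81 higher and 14 lower at an unadjusted 0.05, against 9.34% and 5.32% of genes. The 14 lower are 6.33% of members, near the background. DESeq2 called 49 of 216 members higher and 7 lower, against 5.28% and 2.57% of genes.

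Across members, Spearman's rho between the WT weighted mean hour and the RNAi ratio was -0.84 with polyA selection (210 members) and -0.77 with rRNA depletion (222), a description over genes measured in the same few libraries. Some marker sums differed between RNAi and mock here too, and others did not in both preparations. The yolk genes summed to 405 CPM in RNAi against 34184 CPM in mock with polyA selection, and to 821 to 5077 CPM against 19481 CPM with rRNA depletion. The epidermal genes summed to 3244 against 605 CPM and to 2430 to 3752 against 385 CPM. The sperm genes summed to 883 against 1199 CPM with polyA selection, but to 669 to 828 against 667 CPM with rRNA depletion. The oocyte and germline genes summed to 1679 against 3591 CPM with polyA selection. With rRNA depletion they lay on both sides of mock, at 2478 to 3948 against 3071 CPM. By ranks over the members the polyA RNAi library was most like WT 2 h of the time course (rho 0.903) and its mock most like WT 7 h (0.946). The part of these markers in the RNAi ratios was not tested.

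**Figure D5:**
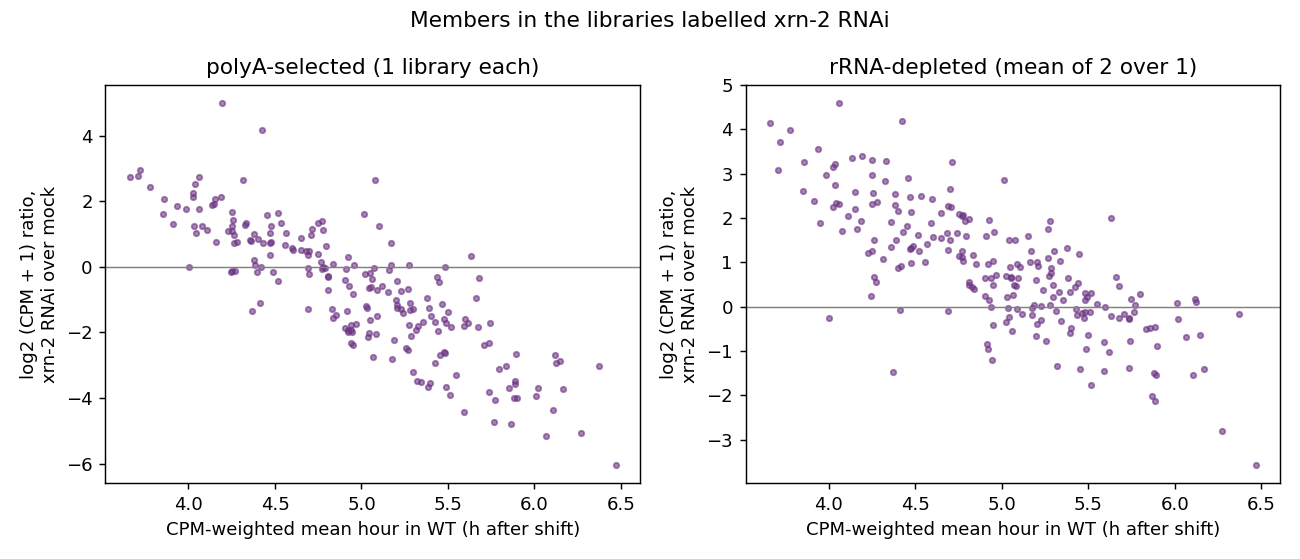
Log2 ratio of CPM + 1 in xrn-2 RNAi over mock for each member against its CPM-weighted mean hour in the WT time course, with polyA selection (left, 210 members) and rRNA depletion (right, 222 members). With polyA selection the medians run from 1.24 for WT peaks at 4 h to -2.84 for peaks at 6 h, and with rRNA depletion from 2.13 to -0.31.

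Reads in the downstream window of the genes had not been used by the rule. The WT gene counts they are divided by include those that chose the members, so the shares are not independent of it. The labels do not state how far that window reaches. For 219 members with a window, downstream counts at 4 to 6 h were 5.11 per 100 gene counts in xe31 and 5.31 in WT, lower in xe31 when summed, against 1.41 in xe31 and 1.26 in WT over all 15428 tested genes with a window. Per gene, the downstream share was higher in xe31 for 86 of 122 members with at least 20 downstream counts (70.5%), against 70% of 7021 genes, a share near the background, with median log2 ratios of 0.47 over the members and 0.32 over the genes. At 6 to 10 h it was higher in xe31 for 127 of 147 members (86.4%), against 80.8% of 10248 genes, with medians of 1.29 and 1.08, although the summed downstream counts per 100 gene counts were again lower in xe31, at 5.85 against 6.41 in WT. At 0 to 2 h it was higher in xe31 for 29 of 62 members (46.8%), against 52.8% of genes, with a median of -0.14. Gene counts and windows come from the same libraries, and these ratios have no test.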

How the data were processed

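The only unit used is the read count, which the authors deposited per gene and per window downstream and upstream of genes, per the file headers. Build ce10 is named in the submitters' processing notes; aligner, counting program and strand use are not given in the labels. The 4 gene count columns of polyA RNAi libraries that match no sample listed here were not used, nor were the 16 chromatin libraries. Window tables list part of the genes. Symbols were found for 42362 of 44200 gene IDs.

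The members and gene lists were chosen with earlier results of these data known. CPM were computed from library totals. Tests used edgeR 4.0.16 (R 4.3.3), TMM, filterByExpr at a minimum count of 10, glmQLFTest, and Benjamini-Hochberg adjustment over all genes tested with a threshold of 0.05; DESeq2 1.42.0 was an alternative. Unreplicated pairs are given as log2 ratios of CPM + 1, for the polyA pair if the pair held 100 counts or more, and with exact binomial 95% intervals. Each time-course hour is 1 library and stands as a replicate of its window. The labels do not say that libraries of a group came from separate cultures, so p-values of the rRNA-depleted fit may cover technical spread alone. Those of the xe31 fit measure the spread between hours of a window. In the catalytic-dead fit the residual is the difference of the strain effect between 6 h and 10 h. The fitting functions were run on simulated counts with the same spread for all genes and constant levels within a group. Levels in the real windows change from hour to hour, so that run checks the code and not the error rates here. Named genes were the 10 highest members, the 8 sharpest peaks, the 4 earliest and 4 latest, the 4 largest shifts each way, the 5 largest changes each way in the catalytic-dead fit, up to 5 members per list, and 3 genes on each side of the threshold; idpc-1 was added after its values were seen. A motif search of promoters and sequences of members was planned and not run, since promoter sequences were not used here. Depths set the floor of detection at 3 counts, or 0.0119 to 0.138 CPM per library.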

Additional observations from a re-analysis of the deposited data

Results flagged for a closer look

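The members' summed CPM moved in opposite directions in the catalytic-dead experiment at its 2 hours. The log2 ratio of catalytic-dead over WT was -0.65 at 6 h and 3.60 at 10 h. Each hour has 1 library per strain, and the difference between the hours was not tested.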

How the results depend on the processing

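Under the other settings tried, the count of members stayed between 161 and 303 and that of members called in xe31 between 128 and 214, each within 1.5 times the reported value. For the alternative xe31 fits the share of all genes called was not computed. The median timing shift was -1 h from the hour of the highest CPM and 0 h from the highest 3-hour running mean, and otherwise within -0.24 to -0.37 h. In the catalytic-dead comparison, members called higher numbered 7 with DESeq2's size factors in edgeR, 8 with no filter on low counts, 81 with DESeq2, 23 without hour as a block, 0 for members of the 6-fold rule, and 0 to 107 when each library was left out in turn (107 without WT 6 h, 0 without WT 10 h). Those called lower numbered 1, 1, 4 and 1 in the first 4 of these settings and 0 to 4 with a library left out. The median log2 change was 0.88 without the block and 0.25 to 3.83 with a library left out. For 6 h against 10 h the median was 0.31 without strain as a block and -0.53 to 3.78 with a library left out, reversing without WT 6 h (-0.03) or WT 10 h (-0.53), and DESeq2 called 2 members higher. With a library left out, the catalytic-dead change of C06E8.5 ran from -6.99 to 0.081 and that of abu-7 from -5.62 to 2.90, both reversing without WT 6 h. In rRNA-depleted RNAi, DESeq2 called 49 members higher and 7 lower, and the median log2 ratio was 0.46 to 0.99 with either RNAi library left out. The polyA median was -0.82 with TMM scaling and -1.26 for members of the 6-fold rule. The cause of these changes was not tested. Hour was the block in the catalytic-dead fit, and xe31 was not tested against WT, whose libraries chose the members. No paired analysis was possible because no RNA groups compared share 2 replicate numbers, and the chromatin groups that share numbers come without values here.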
